A study of Danio rerio with 4 samples.

Results

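The transcripts described here are those that the authors listed as higher or lower in the whole retina of wild-type zebrafish 12 hours after injury (12 hpi), set against uninjured retina. They comprise every transcript in the authors' lists of higher and lower transcripts for that comparison, 1 entry per transcript, which gave 619 transcripts of the 3154 transcript or gene entries deposited for the study. A transcript with at least 0.1 FPKM in both groups was kept for fold changes (408 transcripts). The other 211, with less than 0.1 FPKM in 1 of the groups, are called on/off transcripts and are described apart. FPKM, fragments scaled to transcript length and mapped fragments, is a level that can be compared between genes, though for very short RNAs few fragments can give a high value. All changes are log2((12 hpi FPKM + 0.1)/(uninjured FPKM + 0.1)), so that a positive value means a higher level at 12 hpi.

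All fish were wild type and 10 months old, and RNA came from the retina as a whole. The series has 4 groups: retina at 12 hpi, at 4 days post injury (4 dpi), at 4 dpi with valproic acid (fish held in 100 µM for 4 days; an inhibitor of histone deacetylases), and uninjured retina. The authors deposited 1 pooled FPKM value per group, although the design text speaks of duplicates, so there is no spread between samples, no test of a difference was possible and every fold change below is a description without a replicate check. How the retina was injured, how many fish were pooled and how deeply each library was sequenced are not given in the sources used here. In whole tissue, fewer cells of a type and less RNA per cell cannot be told apart.

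Zebrafish, unlike mammals, rebuild retinal neurons after injury. The source of the new neurons is the Müller glia, the radial glia of the retina, which sense damage, leave their resting state, and later divide to give progenitors. The first hours after damage are known for immediate early transcription factors, cytokine signalling through gp130 receptors and Stat3, heat shock proteins and the recruitment of leukocytes, with proliferation coming later.

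Among the 408 kept transcripts, 248 were higher at 12 hpi (60.8%) and 160 were lower (39.2%). A difference of 4-fold or more was reached by 193 higher transcripts (47.3%) and 74 lower ones (18.1%), together 267 transcripts (65.4%). These shares are of transcripts that the authors had already selected at an unadjusted p of at most 0.05, so they are a background for the gene groups below and say nothing about the share of all genes that changed. The higher transcripts had a median log2 change of 2.52, a 5.73-fold difference, with a median of 19.4 FPKM at 12 hpi and 2.62 FPKM in uninjured retina. The lower transcripts had a median log2 change of -1.96, a 3.89-fold difference, with a median of 6.18 FPKM at 12 hpi and 26.6 FPKM in uninjured retina. Differences of 16-fold or more were seen for 27 higher transcripts and for 1 lower transcript. The smallest difference among the kept transcripts was that of *tex264b*, an antisense transcript chosen after its values were seen, with 2.59 FPKM at 12 hpi and 2.78 FPKM in uninjured retina.

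**Figure D1:**
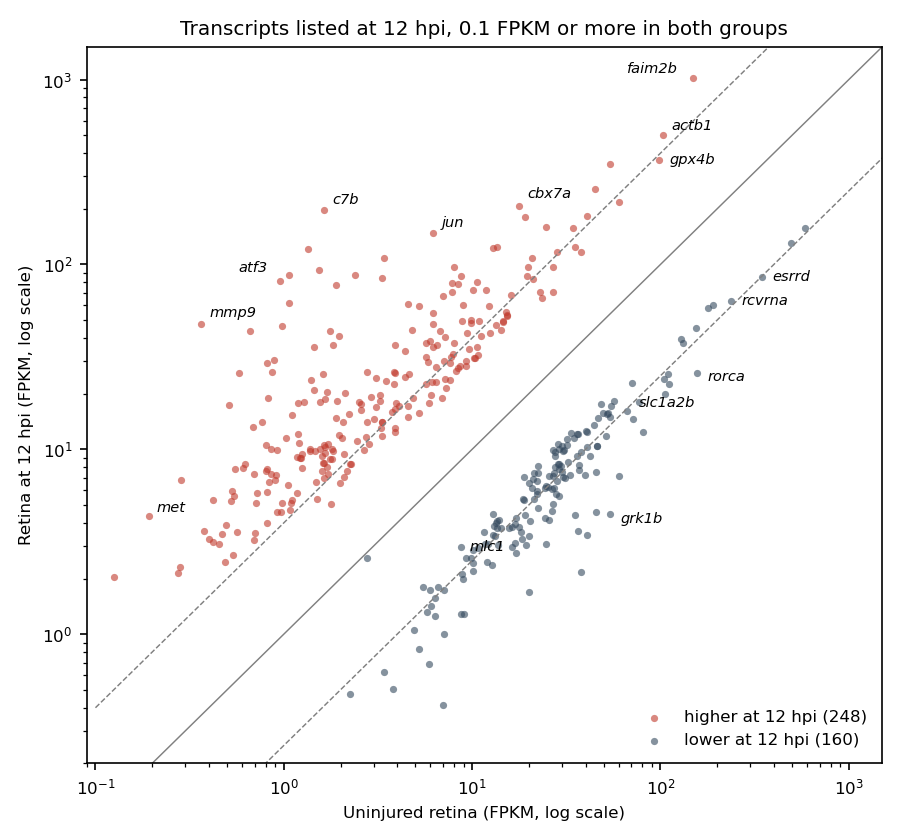
FPKM at 12 hpi (vertical, log scale) against FPKM in uninjured retina (horizontal, log scale) for the 408 kept transcripts, red for the 248 higher and grey for the 160 lower at 12 hpi. The solid line marks equal levels and the dashed lines a 4-fold difference; the higher transcripts spread far above the upper dashed line, up to c7b and mmp9, and the lower ones stay near the lower dashed line.

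The list has a sharp lower edge. The transcripts just above the limit of 0.1 FPKM were an uncharacterised gene, *CR735126.1*, with 0.126 FPKM in uninjured retina, and *met* with 0.191 FPKM. Just below it stood *itpk1a* with 0.0707 FPKM, and the next value below was 0.00213 FPKM, for *selk* at 12 hpi. The authors marked none of the 619 transcripts as significant: in the authors' deposited table the smallest p was 5e-05, shared by 24 transcripts, at q = 0.0717, and the median q was 0.997. Of the kept transcripts, 5 stood at that smallest p: *atf3*, *socs3b*, *jun*, *fosl1a* and *hsp70l*. The other 19 at that p were on/off transcripts, among them several lens crystallins such as *crygm3* and *cryaa*. The standard error that the authors' log2 fold change and test statistic imply had a median of 0.876 over the kept transcripts and ran up to 2.103, so differences between genes of 1 or 2 log2 units lie within that error.

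Gene lists were used to place the transcripts. All 9 listed immediate early and AP-1 genes and all 9 listed regeneration-associated genes were higher. None of the 99 genes on the cell cycle list was listed by the authors in either direction, and none of the 108 on the list for the Wnt, Hedgehog, TGF-beta and BMP pathways. Lists for amacrine and horizontal cells, endothelial cells and pericytes, oligodendrocytes and muscle also had 0 members listed. These lists do not hold every gene of a pathway or cell type. Some genes are on more than 1 list and count in each. The Wnt ligand *wnt2bb*, the TGF-beta regulator *nrros* and the endothelial gene *esm1*, described below, were listed as higher but are on none of these lists. Of a gene that is missing from the authors' lists it is unknown whether it was measured. Of the genes named below, the list members *aanat2*, *arntl1b*, *cacna2d2a*, *csrnp1b*, *cxcl8b.1*, *eif2s2*, *hspb8*, *jak1*, *junba*, *msna*, *nfil3*, *samd11*, *socs2*, *srgn* and *tpm3* lay outside the naming rule given with the methods and were chosen after their values were seen. Of 11 defining photoreceptor markers only *rcvrna* was listed, with 63.6 FPKM at 12 hpi and 237 FPKM in uninjured retina. The tissue identity itself can therefore be read only from the transcripts that changed. Among these, the rod list members *rcvrna* and *guca1a* were abundant in both groups.

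**Figure D2:**
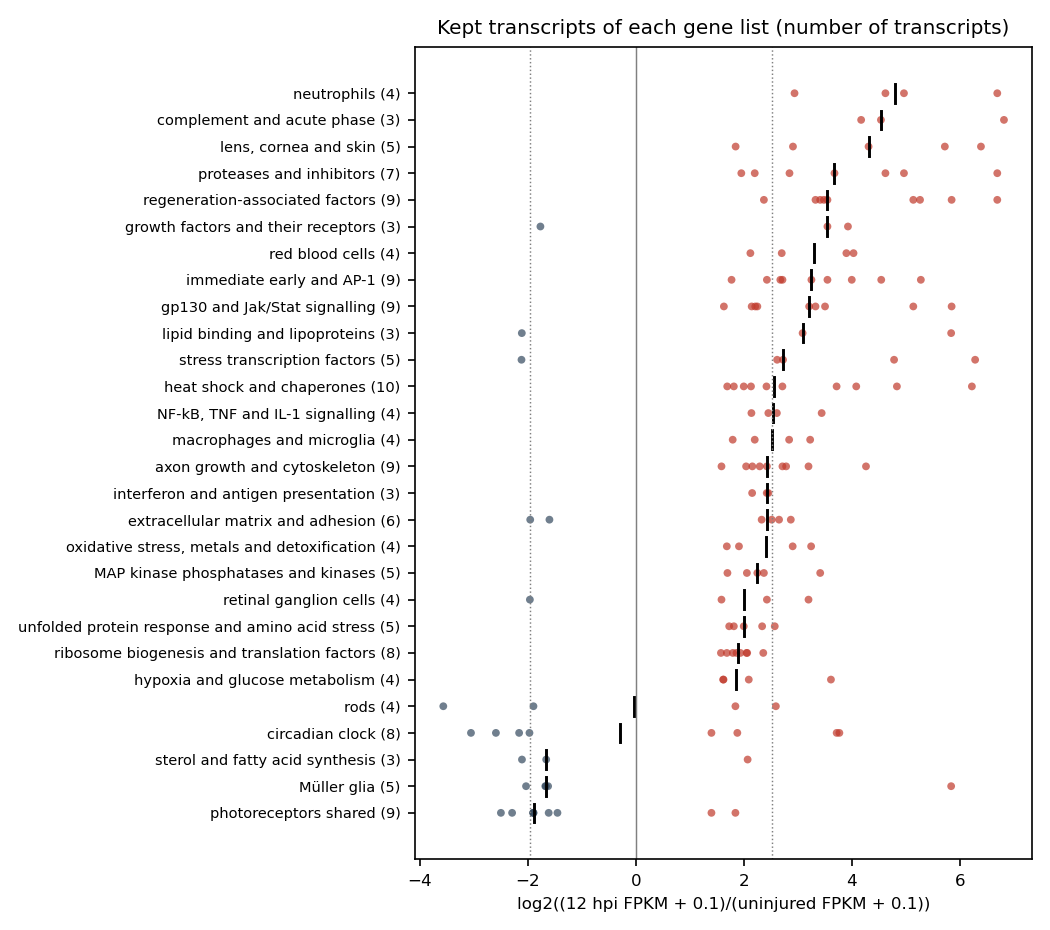
Log2 change at 12 hpi over uninjured (horizontal) of each kept transcript, for the gene lists with 3 or more kept transcripts, sorted by the list's median (black bar); the number of transcripts is in brackets. Dotted lines mark the medians of all higher (2.52) and all lower (-1.96) transcripts; every kept member of, for example, the chaperone, NF-kB and neutrophil lists lies to the right of 0, the stress factor and growth factor lists each have 1 member to the left of it, and the Müller glia, sterol and shared photoreceptor lists have medians to the left of it.

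Transcription factors of the first response were among the most changed. *jun*, the partner of Fos proteins in the AP-1 factor, had 147 FPKM at 12 hpi and 6.21 FPKM in uninjured retina, which is a log2 change of 4.54. In the authors' deposited table its log2 fold change was 4.57 with an implied standard error of 0.841 (p = 5e-05, q = 0.0717). Its relatives were higher too. *junbb* had 123 FPKM at 12 hpi and 12.8 FPKM in uninjured retina. *junba* had 19.1 FPKM at 12 hpi and 2.91 FPKM in uninjured retina. The Fos-related subunit *fosl1a* started lowest of these, with 23.8 FPKM at 12 hpi and 1.395 FPKM in uninjured retina. The 9 members of the immediate early list had a median log2 change of 3.25, against 2.52 for all higher transcripts. With a pseudocount of 1 these medians were 2.52 and 2.11. The summed level of the 9 members was 479 FPKM at 12 hpi and 45.8 FPKM in uninjured retina. The list's smallest changes were those of *klf6a* and of *csrnp1b*, a nuclear protein induced by axin, with 49.7 FPKM at 12 hpi and 14.5 FPKM in uninjured retina. The orphan nuclear receptor *nr4a1*, an immediate early gene in neurons, had 5.87 FPKM at 12 hpi and 0.810 FPKM in uninjured retina.

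Beside AP-1 stood the ATF and C/EBP families, basic leucine zipper factors of stress and acute phase responses. *atf5a*, which in mammals takes part in the mitochondrial stress response, had 60.0 FPKM at 12 hpi and 8.99 FPKM in uninjured retina. *cebpd*, a C/EBP factor induced by inflammation, had 16.3 FPKM at 12 hpi and 2.58 FPKM in uninjured retina, against a larger difference for its relative *cebpb* (log2 change 4.78 against 2.62). The 1 lower member of this list was *foxo3a*, a forkhead factor restrained by insulin signalling, with 10.5 FPKM at 12 hpi and 45.8 FPKM in uninjured retina. Its paralog *foxo1b*, chosen after its values were seen, went the other way, with 9.58 FPKM at 12 hpi and 1.65 FPKM in uninjured retina. In the same direction as *foxo3a* was *irs1*, an adaptor of the insulin receptor, with 8.31 FPKM at 12 hpi and 28.6 FPKM in uninjured retina. *grb10a*, an adaptor that dampens insulin receptor signalling, had 4.41 FPKM at 12 hpi and 35.36 FPKM in uninjured retina, which makes uninjured retina 7.85 times higher with the pseudocount.

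In the Myc family, which drives cell growth, 3 genes put together after their values were seen were higher. Next to the known pair *mycb* and *mych*, *myclb*, the zebrafish counterpart of L-Myc, had 54.8 FPKM at 12 hpi and 6.22 FPKM in uninjured retina. *myclb* was on no gene list and was chosen after its values were seen. *cbx7a*, a subunit of Polycomb repressive complex 1, which compacts chromatin, was among the transcripts of highest level, with 207 FPKM at 12 hpi and 17.8 FPKM in uninjured retina. The other kept chromatin gene, *hmga1b*, which encodes a DNA-bending protein, had 14.7 FPKM at 12 hpi and 46.7 FPKM in uninjured retina. Paralogs split in the spalt family of zinc finger factors as well: *sall1b* (chosen after its values were seen) had 3.58 FPKM at 12 hpi and 0.566 FPKM in uninjured retina, whereas *sall1a* had 24.1 FPKM at 12 hpi and 104 FPKM in uninjured retina. Other developmental regulators were lower, including *sox6* with 3.05 FPKM at 12 hpi and 19.4 FPKM in uninjured retina and the Notch target *hey1* with 1.01 FPKM at 12 hpi and 7.10 FPKM in uninjured retina. *hey1* was the only one of 52 Notch pathway genes listed.

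Receptor subunit gp130 and the Jak and Stat proteins carry the signals of interleukin 6 and its relatives. The 9 kept transcripts of the gp130 and Jak/Stat list were all higher and had a median log2 change of 3.21, which was 2.47 with a pseudocount of 1 and 2.25 with at least 1 FPKM in both groups. The list's 1 on/off transcript was lower: it belongs to *il6st*, the gene of gp130 itself, and had 0 FPKM at 12 hpi and 4.89 FPKM in uninjured retina, whereas the kept *il6st* transcript was higher. *il4r.1*, the interleukin 4 receptor, which uses Jak kinases but not gp130, had 7.88 FPKM at 12 hpi and 0.604 FPKM in uninjured retina. The kinase *jak1*, which signals from gp130, started from a higher level, with 86.9 FPKM at 12 hpi and 19.6 FPKM in uninjured retina. Among the feedback inhibitors that Stat factors induce, *cish* had 78.3 FPKM at 12 hpi and 8.38 FPKM in uninjured retina. *socs2* had 71.1 FPKM at 12 hpi and 22.9 FPKM in uninjured retina, so both were already well detected before injury, in contrast with *socs3b* at 2.39 FPKM in uninjured retina. *pim2*, a survival kinase induced by Stat factors, had 8.91 FPKM at 12 hpi and 1.80 FPKM in uninjured retina. The erythropoietin receptor *epor*, which uses the same kinase family and was chosen after its values were seen, had 2.31 FPKM at 12 hpi and 0.282 FPKM in uninjured retina.

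**Figure D3:**
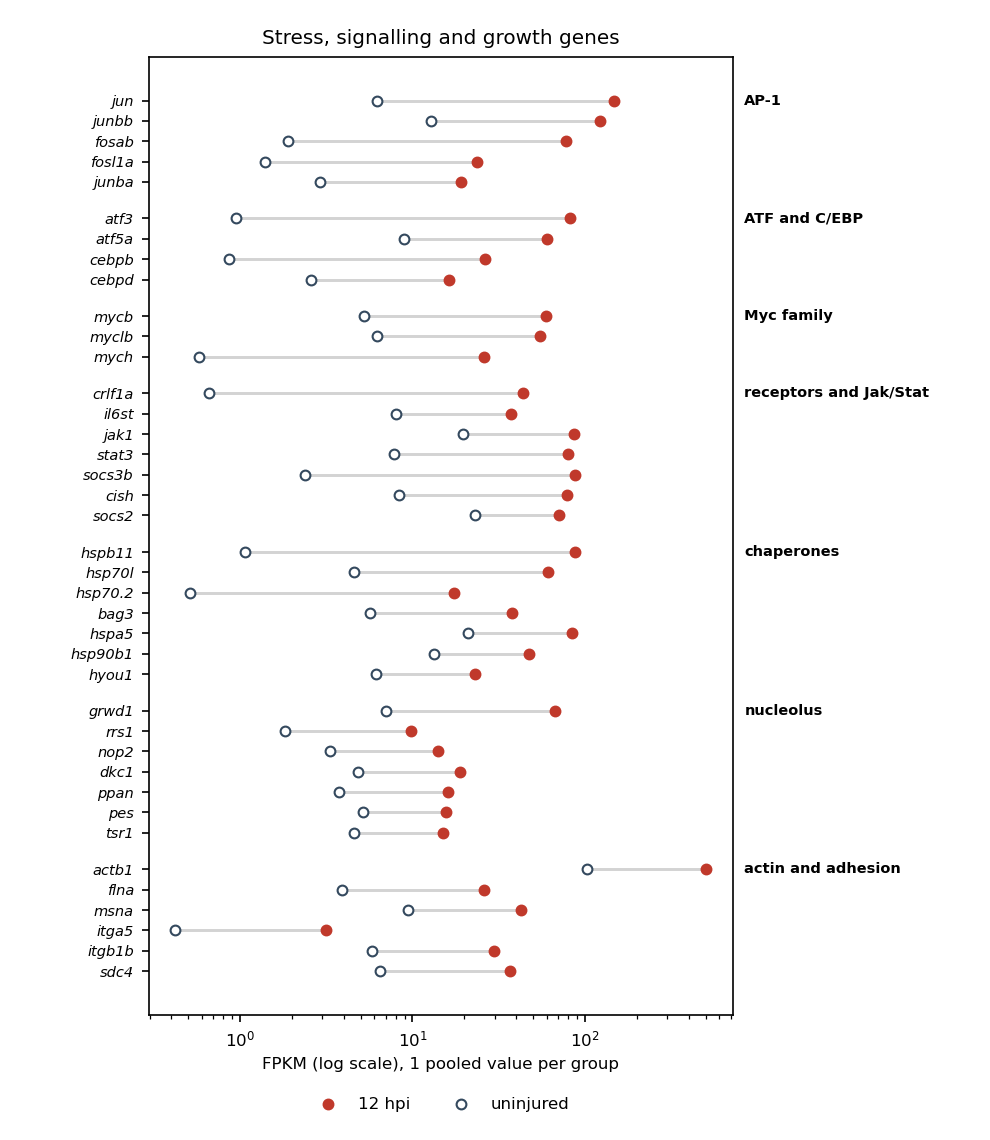
FPKM (log scale) of genes by role, filled red circles for 12 hpi and open circles for uninjured retina, 1 pooled value per group and the most abundant transcript where a gene has more than 1. Every gene shown was higher at 12 hpi; actb1 was the most abundant, at 503 FPKM at 12 hpi and 103 FPKM in uninjured retina.

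The NF-kB and TNF list had 4 kept members, all higher, with a median log2 change of 2.53. *tnfrsf1a*, the receptor of tumour necrosis factor, had 10.04 FPKM at 12 hpi and 1.56 FPKM in uninjured retina. *ptgs2a*, which makes prostaglandins and is also called COX-2, had 17.9 FPKM at 12 hpi and 1.56 FPKM in uninjured retina. A receptor, a kinase and a transcription factor of the non-canonical NF-kB arm were all listed higher: *cd40*, *map3k14a* and *nfkb2*. The kinase *map3k14a* (NIK) had 14.04 FPKM at 12 hpi and 3.302 FPKM in uninjured retina. Its target *nfkb2* had 11.09 FPKM at 12 hpi and 2.44 FPKM in uninjured retina. This trio was put together after its values were seen, so its shared direction is given by the choice. Of the apoptosis and p53 list 2 genes were listed, both higher. *cflara*, an inhibitor of caspase 8 known as c-FLIP, had 11.57 FPKM at 12 hpi and 2.04 FPKM in uninjured retina. *diablob*, whose product counters inhibitors of apoptosis, was an on/off transcript with 4.51 FPKM at 12 hpi and 0.000261 FPKM in uninjured retina. *zfp36l1a*, which destabilises mRNAs of cytokines and other genes, had 34.8 FPKM at 12 hpi and 9.59 FPKM in uninjured retina. Its relative *ZFP36*, chosen after its values were seen, had 10.7 FPKM at 12 hpi and 1.72 FPKM in uninjured retina. The stress-induced signalling genes *gadd45ba* and *gadd45bb* differed in level but were both higher. *gadd45ba* had 108 FPKM at 12 hpi and 20.8 FPKM in uninjured retina. *gadd45bb* had 10.02 FPKM at 12 hpi and 0.850 FPKM in uninjured retina.

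Of the growth factor list, 3 of 103 genes were kept. *met*, the receptor of hepatocyte growth factor, had 4.33 FPKM at 12 hpi and 0.191 FPKM in uninjured retina, a ratio of 15.21 with the pseudocount, from a level close to the limit of 0.1 FPKM. The MAP kinase list had 5 kept members, each higher (median log2 change 2.25). Of these, *gadd45ba*, *gadd45bb*, *pim2* and *map3k14a* are described above. *pim2* also counts in the gp130 and Jak/Stat list, and the *gadd45* genes also count among the regeneration-associated genes. The remaining member was *mapkapk3*, a kinase downstream of p38, with 27.4 FPKM at 12 hpi and 8.40 FPKM in uninjured retina. *wnt2bb*, *nrtn* and *esm1* were not on the growth factor list and were chosen after their values were seen. The Wnt ligand *wnt2bb* had 8.01 FPKM at 12 hpi and 1.69 FPKM in uninjured retina. *esm1*, a secreted proteoglycan of endothelial cells, had 5.12 FPKM at 12 hpi and 0.709 FPKM in uninjured retina. On the lower side, the neurotrophic ligand *nrtn* (neurturin) had 5.75 FPKM at 12 hpi and 22.1 FPKM in uninjured retina. The natriuretic peptide clearance receptor *npr3*, also chosen in this way, had 5.10 FPKM at 12 hpi and 1.09 FPKM in uninjured retina.

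The largest change of all kept transcripts was in the terminal complement gene listed as *C7* (*c7b* in the name table), whose product forms part of the membrane attack complex, with 196 FPKM at 12 hpi and 1.64 FPKM in uninjured retina. In the authors' deposited table its log2 fold change was 6.90 with an implied standard error of 1.52 (p = 0.0124, q = 0.997). On GRCz10 it is listed on chromosome 21 from 20706239 to 20896022. The complement gene listed as *C4A* (*c4b*) had 6.82 FPKM at 12 hpi and 0.284 FPKM in uninjured retina. The coagulation trigger *f3a*, tissue factor, had 35.8 FPKM at 12 hpi and 1.44 FPKM in uninjured retina. On/off transcripts added *fgb*, the beta chain of fibrinogen, with 1.29 FPKM at 12 hpi and 0 FPKM in uninjured retina.

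Chemokines, the attractants of leukocytes, were higher without exception among those listed. *cxcl18b* was the 1 kept member, with 108 FPKM at 12 hpi and 3.40 FPKM in uninjured retina. The other 6 chemokine and receptor transcripts were on/off transcripts listed at 0 in uninjured retina, with a sum of 65.6 FPKM at 12 hpi. Most of that sum came from the 2 transcripts of *ccl34a.4*; *ccl34b.8* had 2.48 FPKM, the neutrophil chemokine receptor *cxcr1* (listed as *si:ch73-54b5.2*) 1.84 FPKM, *ccl34a.3* 1.75 FPKM, and *cxcl8b.1*, an interleukin 8 gene, 1.38 FPKM at 12 hpi. These lie near 1.01 FPKM, the lowest level that the authors listed in the higher group. A pair of transcripts listed as *ccr12b.1*, a chemokine receptor name chosen after its values were seen, had 1.11 FPKM and 1.1046 FPKM at 12 hpi, and 0 FPKM in uninjured retina.

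Genes of leukocytes were higher, while the markers that define leukocytes were not listed. The defining macrophage markers *mpeg1.1*, *mfap4* and *csf1ra* and the neutrophil markers *mpx* and *lyz* were absent from both lists. The macrophage and microglia list had 4 kept members, all higher, with a median log2 change of 2.52, and the neutrophil list had 4 transcripts of 3 genes, with a median of 4.79, or 4.18 with a pseudocount of 1 and 3.78 with at least 1 FPKM in both groups. Of the neutrophil list, *mmp9* and *timp2b* are also on the protease list. *ctsla*, the lysosomal protease cathepsin L, had 158 FPKM at 12 hpi and 34.3 FPKM in uninjured retina. *coro1a*, an actin regulator of leukocytes, had 11.7 FPKM at 12 hpi and 3.32 FPKM in uninjured retina. *srgn*, the granule proteoglycan serglycin, had 24.4 FPKM at 12 hpi and 3.098 FPKM in uninjured retina. *nrros*, a microglial regulator of TGF-beta that was chosen after its values were seen, had 3.50 FPKM at 12 hpi and 0.468 FPKM in uninjured retina. Against this, the on/off transcript of *syk*, a kinase of immune receptors, had 0.0004 FPKM at 12 hpi and 1.31 FPKM in uninjured retina. How much leukocyte number contributed was not tested.

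Proteases and their inhibitors, which reshape the matrix around cells, were higher in all 7 kept transcripts, with a median log2 change of 3.68, which was 2.95 with a pseudocount of 1 and 2.84 with at least 1 FPKM in both groups. *adam8b*, a membrane metalloprotease of activated leukocytes, had 15.3 FPKM at 12 hpi and 1.1003 FPKM in uninjured retina. *serpinb1*, an intracellular inhibitor of neutrophil proteases, had 9.09 FPKM at 12 hpi and 1.18 FPKM in uninjured retina. Adhesion receptors accompanied them: *itga6a*, a laminin receptor subunit, had 7.27 FPKM at 12 hpi and 0.910 FPKM in uninjured retina. Its partner subunit *itgb1b* had 29.8 FPKM at 12 hpi and 5.85 FPKM in uninjured retina. The fibronectin receptor subunit *itga5* had 3.17 FPKM at 12 hpi and 0.420 FPKM in uninjured retina. Not all integrins went this way. *itgb5*, a subunit of a vitronectin receptor, had 6.57 FPKM at 12 hpi and 20.2 FPKM in uninjured retina, and the basement membrane collagen *col15a1b* had 5.40 FPKM at 12 hpi and 21.3 FPKM in uninjured retina. *sdc4*, a syndecan that works with integrins, and *THBS1*, thrombospondin, were chosen after their values were seen and were higher. *sdc4* had 36.7 FPKM at 12 hpi and 6.52 FPKM in uninjured retina. *THBS1* had 8.46 FPKM at 12 hpi and 1.63 FPKM in uninjured retina.

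The chaperones were higher in every one of 10 kept members, and the listed genes work in more than 1 compartment of the cell. In the cytosol, the inducible *hsp70.2* had 17.4 FPKM at 12 hpi and 0.513 FPKM in uninjured retina. Its co-chaperones were higher with it, *bag3* with 37.7 FPKM at 12 hpi and 5.67 FPKM in uninjured retina. *dnajb1b*, another co-chaperone, had 10.03 FPKM at 12 hpi and 1.80 FPKM in uninjured retina. The small heat shock protein *hspb8*, a partner of Bag3, had 2.47 FPKM at 12 hpi and 0.487 FPKM in uninjured retina. In the endoplasmic reticulum, *hspa5* (BiP) had 83.8 FPKM at 12 hpi and 20.9 FPKM in uninjured retina. *hsp90b1* (Grp94) had 47.3 FPKM at 12 hpi and 13.4 FPKM in uninjured retina. *hyou1*, a chaperone of the same compartment chosen after its values were seen, had 23.14 FPKM at 12 hpi and 6.11 FPKM in uninjured retina. These 3 lay close together, with a median log2 change of 1.90, below the list's median of 2.57. The smallest change of the list was that of the cytosolic *hspa4a*, chosen after its values were seen, with 28.1 FPKM at 12 hpi and 8.64 FPKM in uninjured retina.

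The unfolded protein response and amino acid stress list had 5 kept members, all higher, with a median log2 change of 1.997. Its members *hspa5*, whose value is that median, and *hsp90b1* are also on the chaperone list, so the lists are not separate. *ppp1r15a* (Gadd34), which restarts translation after stress, had 50.2 FPKM at 12 hpi and 9.86 FPKM in uninjured retina. *trib3*, a pseudokinase induced by the same pathway, had 13.1 FPKM at 12 hpi and 3.88 FPKM in uninjured retina. *slc7a11*, the cystine importer that feeds glutathione synthesis, had 2.13 FPKM at 12 hpi and 0.275 FPKM in uninjured retina. The list's on/off transcript, of *selk*, an endoplasmic reticulum selenoprotein, was lower, with 0.00213 FPKM at 12 hpi and 13.1 FPKM in uninjured retina. The oxidative stress and metals list went both ways, with 4 kept genes higher and 2 on/off transcripts lower; its median log2 change was 2.41 over the kept genes and 1.80 with the on/off transcripts. The lower ones were of antioxidant enzymes. *cat*, catalase, had 4.31e-05 FPKM at 12 hpi and 2.04 FPKM in uninjured retina. *prdx1*, a peroxiredoxin, had 0.000331 FPKM at 12 hpi and 3.16 FPKM in uninjured retina. *gpx4b*, which detoxifies lipid peroxides, was abundant in both groups, with 369 FPKM at 12 hpi and 98.2 FPKM in uninjured retina. The ferritin-like genes *fthl27* (listed as *zgc:92066*) and *fthl28* (*zgc:198419*), which store iron, were both higher. *fthl27* had 79.9 FPKM at 12 hpi and 10.6 FPKM in uninjured retina. *fthl28* had 12.14 FPKM at 12 hpi and 1.19 FPKM in uninjured retina. They lie 4175 bases apart on chromosome 3, and reads shared between such similar neighbours could have been split between them. *steap4*, a metalloreductase, and *hephl1a*, a ferroxidase, were chosen after their values were seen and were higher. *steap4* had 9.20 FPKM at 12 hpi and 1.59 FPKM in uninjured retina. *hephl1a* had 22.7 FPKM at 12 hpi and 5.67 FPKM in uninjured retina.

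The vault, a large ribonucleoprotein particle of the cytoplasm, had both of its listed protein genes higher. *mvp*, the major vault protein, was listed with 2 transcripts, at 46.6 and 43.6 FPKM at 12 hpi, against 0.974 and 1.76 FPKM in uninjured retina. *parp4*, the vault poly(ADP-ribose) polymerase, was chosen after its values were seen and had 7.34 FPKM at 12 hpi and 0.859 FPKM in uninjured retina. The uninjured values of the 2 *mvp* transcripts add up to the gene's uninjured level of 2.73 FPKM in the 4 dpi tables, in which the gene stood at 37.4 FPKM at 4 dpi. *optn*, an autophagy receptor chosen in the same way, had 28.3 FPKM at 12 hpi and 9.25 FPKM in uninjured retina.

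Listed genes that build ribosomes were higher, by amounts that differed between them. The ribosome biogenesis and translation list had 8 kept members, all of them higher, and a median log2 change of 1.90, and only 3 passed a 4-fold difference (*rrs1*, *ppan* and *nop2*). *rrs1* had 9.76 FPKM at 12 hpi and 1.82 FPKM in uninjured retina. The rRNA methyltransferase *nop2* had 14.001 FPKM at 12 hpi and 3.31 FPKM in uninjured retina. *dkc1*, the pseudouridine synthase dyskerin, had 18.9 FPKM at 12 hpi and 4.86 FPKM in uninjured retina. An on/off transcript of the list, of *utp18*, had 2.82 FPKM at 12 hpi and 0 FPKM in uninjured retina. A group of further nucleolar genes that were higher was put together after its values were seen, so its direction is given by the choice. It held 6 genes with a median log2 change of 2.18. The largest was *grwd1*, a ribosome assembly factor, with 67.3 FPKM at 12 hpi and 6.98 FPKM in uninjured retina. The smallest was *esf1*, with 8.38 FPKM at 12 hpi and 2.24 FPKM in uninjured retina. The initiation factor *eif2s2* and the termination factor *etf1b* were the most abundant of the list. *eif2s2* had 53.3 FPKM at 12 hpi and 15.3 FPKM in uninjured retina. *etf1b* had 55.4 FPKM at 12 hpi and 15.17 FPKM in uninjured retina. Outside these groups, *pprc1*, a coactivator of the PGC-1 family chosen after its values were seen, had 10.6 FPKM at 12 hpi and 0.805 FPKM in uninjured retina. No kept transcript belonged to the ribosomal proteins, of which the 1 listed was an on/off transcript of *rps28*.

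The axon growth and cytoskeleton list had 9 kept members, each of them higher, and its median log2 change was 2.43. *actb1*, cytoplasmic beta-actin, had 503 FPKM at 12 hpi and 103 FPKM in uninjured retina. The actin crosslinker *flna* had 26.0 FPKM at 12 hpi and 3.88 FPKM in uninjured retina. The membrane linker *msna* (moesin) had 42.4 FPKM at 12 hpi and 9.43 FPKM in uninjured retina. With the tropomyosin *tpm3*, at 32.9 FPKM at 12 hpi and 7.92 FPKM in uninjured retina, these span the actin network from filament to membrane. A further 5 actin-binding genes were chosen after their values were seen and were all higher: *cnn2*, *cnn3a*, *pdlim4*, *myo1ea* and *iqgap1*, between 5.41 FPKM (*iqgap1*) and 31.4 FPKM (*cnn3a*) at 12 hpi, against 1.498 and 10.3 FPKM in uninjured retina. Other cytoskeletal genes outside that list were lower. *MAP4*, which binds microtubules, had 7.54 FPKM at 12 hpi and 30.1 FPKM in uninjured retina for its kept transcript. *mical3b*, of the Mical family of actin regulators, had 1.29 FPKM at 12 hpi and 9.02 FPKM in uninjured retina. The actin bundler *fscn2a*, chosen after its values were seen, had 9.97 FPKM at 12 hpi and 30.8 FPKM in uninjured retina. Intermediate filament genes were higher in all 3 kept cases: *lmna*, the nuclear lamin A/C, had 9.97 FPKM at 12 hpi and 0.926 FPKM in uninjured retina. *krt18* had 47.4 FPKM at 12 hpi and 6.23 FPKM in uninjured retina. Its partner keratin *krt8* had 96.5 FPKM at 12 hpi and 26.8 FPKM in uninjured retina, and was thus the more abundant in both groups. The calcium- and phospholipid-binding *anxa2a* had 22.5 FPKM at 12 hpi and 3.85 FPKM in uninjured retina.

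Genes of axon growth and guidance went in both directions. The tubulin gene *tuba8l* had 36.8 FPKM at 12 hpi and 1.82 FPKM in uninjured retina. The adhesion molecules *alcamb* and *nadl1.1* (*l1camb* in the name table), which guide growing axons, were higher. *alcamb* had 10.1 FPKM at 12 hpi and 1.38 FPKM in uninjured retina. *nadl1.1* had 17.8 FPKM at 12 hpi and 5.88 FPKM in uninjured retina. A group of guidance genes that were lower was put together after its values were seen, so its direction is given by the choice; it held 6 genes with a median log2 change of -1.90. The semaphorin *sema7a* had 7.69 FPKM at 12 hpi and 36.7 FPKM in uninjured retina. The semaphorin *sema3fb* had 6.24 FPKM at 12 hpi and 25.4 FPKM in uninjured retina. The netrin-G gene *ntng2a* had the largest difference of the group, with 4.24 FPKM at 12 hpi and 24.5 FPKM in uninjured retina, and the plexin receptor *plxna1a* the smallest, with 2.96 FPKM at 12 hpi and 8.72 FPKM in uninjured retina. Close homologs of L1 split. *chl1a* had 2.87 FPKM at 12 hpi and 10.1 FPKM in uninjured retina. *chl1b* had 8.35 FPKM at 12 hpi and 2.27 FPKM in uninjured retina. *rbpms2b*, an RNA-binding protein of ganglion cells, was the only 1 of 4 defining ganglion cell markers that was listed, and it was lower. The markers *isl2b*, *pou4f1* and *elavl3* were not listed. Of the 4 kept genes of the ganglion cell list the other 3 were higher, and these also count in the axon growth and cytoskeleton list.

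Genes of sugar metabolism went in both directions. All 4 kept genes of the hypoxia and glucose list were higher. *hk2*, the inducible hexokinase, had 7.87 FPKM at 12 hpi and 0.552 FPKM in uninjured retina, a log2 change of 3.61. *pgd*, of the pentose phosphate pathway, had 116 FPKM at 12 hpi and 37.7 FPKM in uninjured retina. The lactate exporter *slc16a3* had 43.9 FPKM at 12 hpi and 14.3 FPKM in uninjured retina. The vasoactive peptide gene *adma* (adrenomedullin) had 6.64 FPKM at 12 hpi and 1.48 FPKM in uninjured retina. On the lower side, *gpd1b*, glycerol-3-phosphate dehydrogenase, had 1.68 FPKM at 12 hpi and 20.1 FPKM in uninjured retina, the 5th lowest log2 change of all kept transcripts. The malate dehydrogenase gene *mdh1ab*, whose listed transcript is typed as a polymorphic pseudogene, had 45.5 FPKM at 12 hpi and 155 FPKM in uninjured retina. A group of 3 glycogen genes that were lower was put together after its values were seen, so its direction is given by the choice. It held the phosphorylase *pygl*, the phosphorylase kinase subunit *phkg1b*, and *ppp1r3c2b* (listed as *zgc:77112*), which targets a phosphatase to glycogen. *pygl* had 3.86 FPKM at 12 hpi and 13.1 FPKM in uninjured retina. *ppp1r3c2b* had 7.29 FPKM at 12 hpi and 39.7 FPKM in uninjured retina.

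Lipid genes went in both directions. *lipib*, a lipase, had 2 abundant transcripts, at 180 and 124 FPKM at 12 hpi, against 19.1 and 13.5 FPKM in uninjured retina. The lipid droplet coat gene *plin3* (listed as *PLIN5*) had 7.62 FPKM at 12 hpi and 0.809 FPKM in uninjured retina. *acsl4b*, which activates arachidonic acid, had 3.24 FPKM at 12 hpi and 0.696 FPKM in uninjured retina. Lower was *elovl8a*, a fatty acid elongase, with 4.13 FPKM at 12 hpi and 25.5 FPKM in uninjured retina. The fatty acid transporter *slc27a6*, chosen after its values were seen, had 3.94 FPKM at 12 hpi and 16.8 FPKM in uninjured retina. *fabp1a*, a fatty acid binding protein, had 11.8 FPKM at 12 hpi and 51.5 FPKM in uninjured retina. *cdo1*, which degrades cysteine to make taurine, had 25.4 FPKM at 12 hpi and 110.1 FPKM in uninjured retina. In steroid metabolism, *cyp19a1b*, the brain aromatase of radial glia in fish, had 1.25 FPKM at 12 hpi and 6.36 FPKM in uninjured retina, for a transcript typed as an unprocessed pseudogene.

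The few listed photoreceptor genes were mostly lower, and they include structural as well as signalling parts of the cell. Listed were 11 of 86 genes on the shared list, 4 of 31 on the rod list and 1 of 42 on the cone list. Of the 9 kept transcripts of the shared photoreceptor list 7 were lower, against 39.2% of all kept transcripts. The median over all 9 was -1.90, close to the -1.96 of all lower transcripts. The rod list was split at 2 against 2, and both transcripts of the 1 kept cone gene were lower. *arl3l2*, a GTPase of the trafficking of lipid-anchored proteins to the outer segment, had 22.7 FPKM at 12 hpi and 111 FPKM in uninjured retina. *rgs9bp*, the anchor of the complex that ends the light response, had 8.57 FPKM at 12 hpi and 32.3 FPKM in uninjured retina. Its partner *gnb5b* had 39.7 FPKM at 12 hpi and 129 FPKM in uninjured retina. *cngb1b* (listed as *CNGB1*), a subunit of the rod channel gated by cyclic GMP, had 10.4 FPKM at 12 hpi and 46.0 FPKM in uninjured retina. *adgrv1*, a large adhesion receptor at the base of the photoreceptor cilium that was chosen after its values were seen, had 2.44 FPKM at 12 hpi and 11.9 FPKM in uninjured retina. The scaffold *mpp4a* had 2 transcripts at 7.15 and 4.63 FPKM at 12 hpi, against 27.0 and 26.7 FPKM in uninjured retina.

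A few photoreceptor genes stood apart from this. *guca1a*, an activator of guanylate cyclase in photoreceptors, was higher (217 FPKM at 12 hpi and 60.4 FPKM in uninjured retina), while its relative *guca1e* was lower in both transcripts, at 3.45 and 3.61 FPKM at 12 hpi, against 40.6 and 36.5 FPKM in uninjured retina. The 2 *guca1e* transcripts add up to the gene's uninjured level of 77.0 FPKM. *aanat2*, the penultimate enzyme of melatonin synthesis, had 70.8 FPKM at 12 hpi and 26.8 FPKM in uninjured retina, and *nr2e3*, a rod-determining nuclear receptor, was higher as well. *samd11*, a photoreceptor regulator, had 17.6 FPKM at 12 hpi and 48.5 FPKM in uninjured retina. Outside the classical opsins, *tmtops2a*, a teleost multiple tissue opsin chosen after its values were seen, had 13.5 FPKM at 12 hpi and 44.4 FPKM in uninjured retina. No classical opsin among the defining photoreceptor markers was listed.

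**Figure D4:**
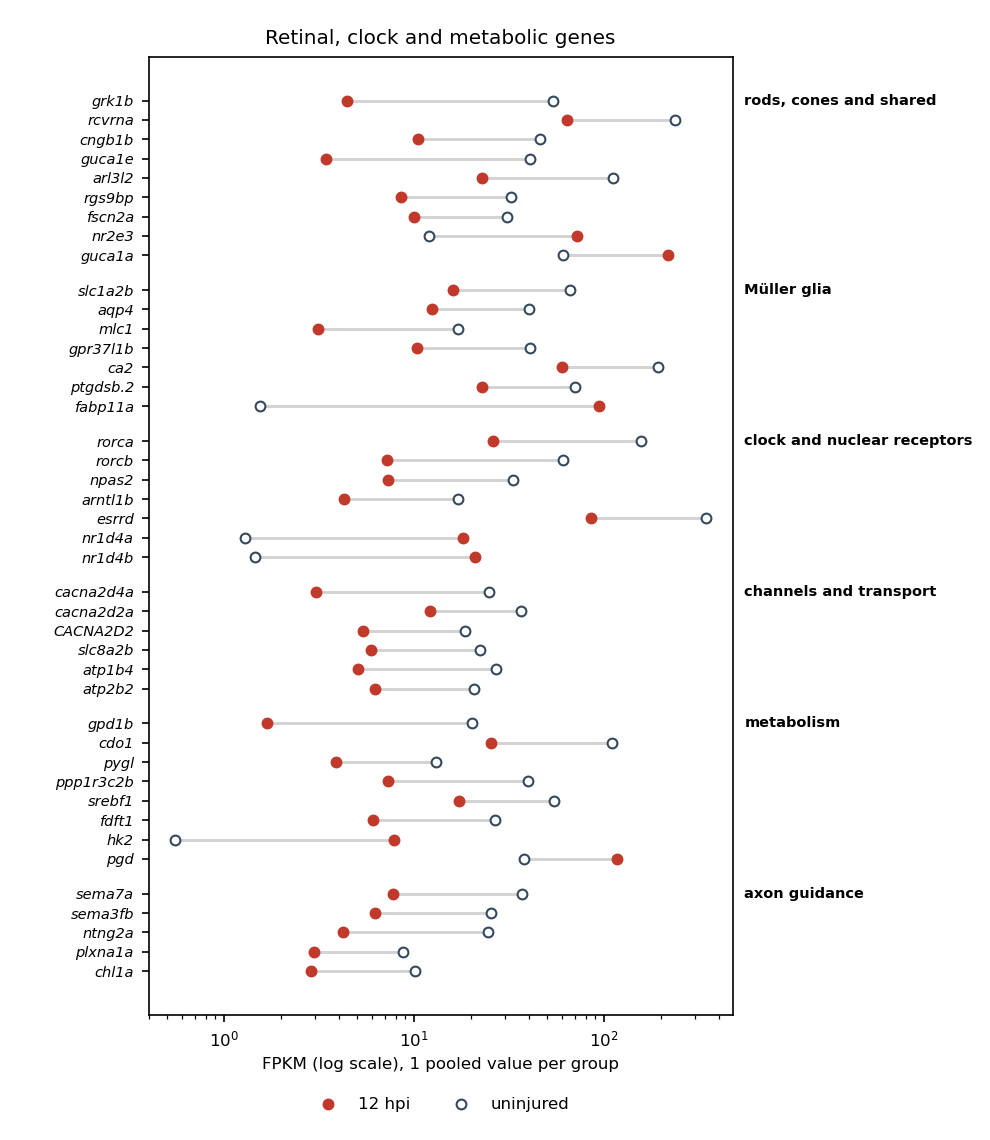
FPKM (log scale) of retinal, clock, transport, metabolic and guidance genes by role, filled red circles for 12 hpi and open circles for uninjured retina, 1 pooled value per group and the most abundant transcript where a gene has more than 1. Most were lower at 12 hpi, and nr2e3, guca1a, fabp11a, nr1d4a, nr1d4b, hk2 and pgd were higher.

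Genes for the housekeeping duties of resting Müller glia were mostly lower. Of the 5 kept members of the Müller glia list 4 were lower, with a median of -1.67; the exception was *fabp11a*. The water channel *aqp4* had 12.5 FPKM at 12 hpi and 40.2 FPKM in uninjured retina. The carbonic anhydrase *ca2* had 60.1 FPKM at 12 hpi and 191 FPKM in uninjured retina, the highest level of these. The prostaglandin D synthase *ptgdsb.2* (listed as *PTGDS*) had 22.7 FPKM at 12 hpi and 70.4 FPKM in uninjured retina. *mlc1*, which sits with Aqp4 in glial endfeet and was chosen after its values were seen, had 3.12 FPKM at 12 hpi and 16.98 FPKM in uninjured retina. *gpr37l1b*, a glial receptor, had 10.3 FPKM at 12 hpi and 40.8 FPKM in uninjured retina. With the glutamate transporter *slc1a2b* these 6 genes had a median log2 change of -1.83, and only *slc1a2b* and *mlc1* passed 4-fold. The 6 were put together after their values were seen and leave out *fabp11a*, so their shared direction is given by the choice. The markers *glula*, *gfap*, *rlbp1a* and *apoeb* were not listed.

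The circadian clock list was split, 4 higher and 4 lower, with a median of -0.29, or -1.97 with the on/off transcript included. The lower ones were the activating receptors *rorca* and *rorcb*, the Bmal1 gene *arntl1b* and the Clock paralog *npas2*. *rorca*, a retinoid-related orphan receptor that activates Bmal1 genes, had 25.9 FPKM at 12 hpi and 157 FPKM in uninjured retina. *arntl1b* had 4.26 FPKM at 12 hpi and 17.02 FPKM in uninjured retina. *npas2* had 7.31 FPKM at 12 hpi and 33.1 FPKM in uninjured retina. The higher ones were *aanat2* and repressors of the loop. The repressor *nfil3* had 10.7 FPKM at 12 hpi and 2.85 FPKM in uninjured retina, and with it stood the Rev-erb genes *nr1d4a* and *nr1d4b*, while *nr1d2a*, another Rev-erb gene, was an on/off transcript with 0 FPKM at 12 hpi and 11.8 FPKM in uninjured retina. *nr1d4b* is listed only 9 bases from *faim2b*, an inhibitor of Fas-mediated death and the kept transcript of highest level, with 1024 FPKM at 12 hpi and 149 FPKM in uninjured retina. Reads running past the end of one gene could be assigned to the other. The sources used here do not give the hour at which each retina was collected, and its part in the clock values was not tested.

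Nuclear receptors outside the clock went in both directions. *esrrd*, an estrogen-related receptor, was one of the most abundant lower transcripts, with 85.6 FPKM at 12 hpi and 344 FPKM in uninjured retina, and its relative listed as *ESRRB*, chosen after its values were seen, had 2.36 FPKM at 12 hpi and 12.7 FPKM in uninjured retina. *nr2f2* (COUP-TFII), chosen in the same way, had 6.16 FPKM at 12 hpi and 27.3 FPKM in uninjured retina. A group of 9 kept receptor genes, put together after its values were seen, also counted clock receptors. In it 4 were higher (*nr4a1*, *nr2e3* and the clock genes *nr1d4a* and *nr1d4b*) and 5 were lower, among them the clock genes *rorca* and *rorcb*.

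Kept entries of channels and pumps were lower more often than higher, while those of carriers were evenly split. Of 7 kept ion channel entries 6 were lower, against 39.2% of all kept transcripts, and the median log2 change of the 7 was -1.77. Of these 6 lower entries, 4 were the alpha2delta entries described below, so the count rests on few different genes. Both kept ATPase pump genes were lower. The solute carriers were split 5 to 5. All 4 listed transcripts of the alpha2delta subunits of voltage-gated calcium channels, which place the channels at synapses, were lower: *cacna2d4a*, found at photoreceptor terminals, had 3.06 and 2.73 FPKM for 2 entries at 12 hpi, against 24.8 and 17.001 FPKM in uninjured retina. *cacna2d2a* had 12.08 FPKM at 12 hpi and 36.3 FPKM in uninjured retina. A second gene with this name, listed as *CACNA2D2*, had 5.37 FPKM at 12 hpi and 18.6 FPKM in uninjured retina. The calcium pump *atp2b2* had 6.19 FPKM at 12 hpi and 20.7 FPKM in uninjured retina. The sodium-calcium exchanger *slc8a2b*, chosen after its values were seen, had 5.92 FPKM at 12 hpi and 22.2 FPKM in uninjured retina. *clic6*, a chloride channel-like gene, had 4.57 FPKM at 12 hpi and 45.6 FPKM in uninjured retina. On the higher side, *slc25a22*, a mitochondrial glutamate carrier, had 160.2 FPKM at 12 hpi and 24.7 FPKM in uninjured retina. *ano2*, a chloride channel opened by calcium, had 19.6 FPKM at 12 hpi and 6.04 FPKM in uninjured retina.

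Transcripts of lens and blood moved with the injured group. Of 129 genes on the lens, cornea and skin list 18 were listed, all higher: 5 kept ones summed to 367 FPKM at 12 hpi and 37.4 FPKM in uninjured retina, and 13 on/off ones summed to 320 FPKM at 12 hpi and 0 FPKM in uninjured retina. Most of the kept sum in uninjured retina came from the keratins *krt8* (26.8 FPKM) and *krt18* (6.23 FPKM), while each kept crystallin of the list had at most 1.97 FPKM there. The crystallins are the main proteins of the lens fibre. *crybb3* had 121 FPKM at 12 hpi and 1.34 FPKM in uninjured retina. *crygs2* had 61.7 FPKM at 12 hpi and 1.07 FPKM in uninjured retina. *cryba4*, chosen after its values were seen, had 40.8 FPKM at 12 hpi and 1.97 FPKM in uninjured retina. Of the defining lens markers *cryaa* and *crygm3* were at 0 in uninjured retina, and *crygm2d4* and *mipa* were not listed. The defining cornea and skin markers were not listed, while *krt8* and *krt18*, keratins of simple epithelia, were. On the red blood cell list 4 kept transcripts were higher, with 2 on/off ones: the globin *ba1* had 349.6 FPKM at 12 hpi and 53.7 FPKM in uninjured retina. The anion exchanger *slc4a1a* had 2.68 FPKM at 12 hpi and 0.540 FPKM in uninjured retina. *nt5c2l1*, a nucleotidase on that list, had 2 transcripts, at 25.4 and 14.0 FPKM at 12 hpi, against 1.61 and 0.763 FPKM in uninjured retina. The part of lens tissue and blood in the other differences, among them those of the keratins, *cryabb* and *lmna*, was not tested.

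The 211 on/off transcripts were mostly faint. Counting them, 394 of the 619 transcripts were higher (63.7%) and 225 were lower (36.3%). Of the on/off transcripts 146 were seen at 12 hpi and 65 in uninjured retina. Among the 146, 118 were listed at exactly 0 in uninjured retina, 78 were under 2 FPKM at 12 hpi and 19 reached 10 FPKM. Among the 65, 31 were at exactly 0 at 12 hpi, 29 were under 2 FPKM in uninjured retina and 10 reached 10 FPKM. Outside the crystallins, the highest at 12 hpi were an uncharacterised gene, *si:dkey-6n3.3*, the *rps28* transcript and *atp6v0ca*, a subunit of the vacuolar proton pump. *si:dkey-6n3.3* had 67.4 FPKM at 12 hpi and 0 FPKM in uninjured retina. *atp6v0ca* had 51.1 FPKM at 12 hpi and 0 FPKM in uninjured retina. The splicing factor *sf3a3* had 16.7 FPKM at 12 hpi and 0.000446 FPKM in uninjured retina, and the minor spliceosome RNA *U6atac* had 28.0 FPKM at 12 hpi and 0 FPKM in uninjured retina. Seen in uninjured retina was the microRNA precursor gene *dre-let-7g-1*, with 0 FPKM at 12 hpi and 688 FPKM in uninjured retina. So were 2 copies of the 5S ribosomal RNA, at 0 FPKM at 12 hpi and at 43.5 and 28.9 FPKM in uninjured retina. These RNAs and *U6atac* are short, so their high FPKM can rest on few fragments. In the authors' deposited table the p was 0.0451 for *dre-let-7g-1*, 0.03365 for each 5S copy and 0.03765 for *U6atac*, all at q = 0.997. *inpp5kb*, a phosphoinositide phosphatase, had 0 FPKM at 12 hpi and 23.7 FPKM in uninjured retina. No fold is given for these, since the other group was at or near 0.

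**Figure D5:**
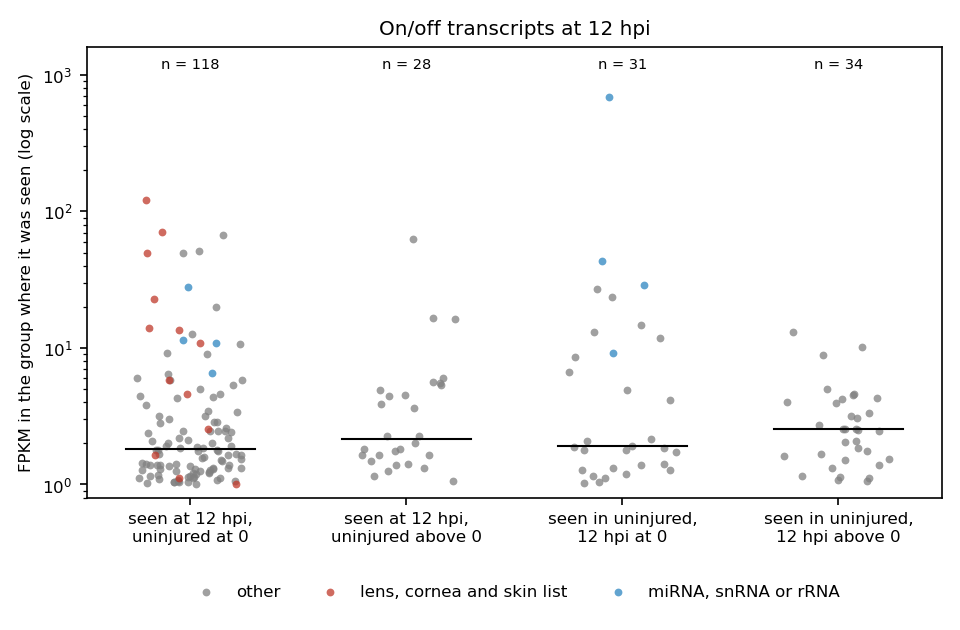
FPKM (log scale) of the 211 on/off transcripts in the group in which they were seen, split by whether the other group was at exactly 0 or above it; horizontal bars are medians. Transcripts of the lens, cornea and skin list (red) are all in the first column, at 12 hpi, and the highest point is the microRNA gene dre-let-7g-1, seen in uninjured retina.

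The level of an on/off transcript need not be that of its gene, and the genes' own levels at 12 hpi are not known here. The gene's uninjured level is known from the gene-level 4 dpi tables for 37 on/off transcripts seen at 12 hpi and 7 seen in uninjured retina. For most of these the gene itself was listed at 0 in uninjured retina. Only 10 had a gene level above 0, and 6 of these 10 carried under 50% of it. The *rps28* transcript had 63.1 FPKM at 12 hpi and 0.00153 FPKM in uninjured retina, yet the gene as a whole had 68.1 FPKM in uninjured retina. The *wnk1b* transcript, at 0 FPKM at 12 hpi and 1.11 FPKM in uninjured retina, was a small part of the gene's 31.3 FPKM, and that of the calcium pump *atp2b3b*, at 0 FPKM at 12 hpi and 1.72 FPKM in uninjured retina, of the gene's 45.4 FPKM. These shares are of the uninjured level. On/off transcripts seen at 12 hpi, such as that of *rps28*, lay below the limit for kept transcripts in uninjured retina by definition. Their low shares follow from that, while those of *wnk1b* and *atp2b3b*, seen in uninjured retina, do not. Over 147 kept transcripts with a known gene level the median share was 100%, 104 carried at least 90% of it and 4 under 50%. The contrast with the on/off transcripts was thus partly set by how the groups were defined. The genes *wnk1b* and *atp2b3b* were chosen after their values were seen.

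Of the genes listed, 20 names had 2 transcripts or loci, and 5 of them were listed in both directions. Of *il6st*, the gp130 receptor subunit, a transcript at 37.5 FPKM at 12 hpi and 8.02 FPKM in uninjured retina stood beside one at 0 FPKM at 12 hpi and 4.89 FPKM in uninjured retina, so the sum of both was higher at 12 hpi. *impg2b*, a proteoglycan around photoreceptors, had 1 transcript with 4.32 FPKM at 12 hpi and 0 FPKM in uninjured retina, and another with 0 FPKM at 12 hpi and 27.2 FPKM in uninjured retina, so its sum was lower. *grik5*, a kainate receptor subunit, had 1.27 FPKM at 12 hpi and 0.00012 FPKM in uninjured retina for 1 transcript, and 0.000142 FPKM at 12 hpi and 1.13 FPKM in uninjured retina for the other, a change of transcript with little change in sum. *sept9a*, a septin, and *MAP4*, a microtubule-associated protein listed under 2 loci, were the other two.

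The same genes can be followed to the later groups, which were compared by the authors with the same uninjured sample, so the values are only set side by side. Of the kept transcripts 124 higher and 80 lower ones had no entry in either later comparison. Among those with one, *CABZ01111555.1*, an uncharacterised gene, had 97.3 FPKM at 12 hpi, 5.26 FPKM at 4 dpi and 4.01 FPKM at 4 dpi with valproic acid, against 19.9 FPKM in uninjured retina, so it was higher early and lower later. *agrp2*, an agouti-related peptide gene, had 18.99 FPKM at 12 hpi and 1.38 FPKM at 4 dpi with valproic acid, against 6.90 FPKM in uninjured retina. Both were chosen after their values were seen and were the only kept transcripts, in either direction, listed the opposite way in a later comparison.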

How the data were processed

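RNA of whole zebrafish retina was sequenced. Bowtie2 2.2.2, TopHat2 2.1.0, Cufflinks 2.2.1 and the build GRCz10 are named per the submitters' processing notes. The authors gave each transcript, per the file headers, 1 FPKM value per group, a log2 fold change, a test statistic (a score), a p-value and a q-value. The deposited tables held transcripts with a p-value of at most 0.05 and more than 1 FPKM in the higher group (seen in the values). How many transcripts were tested is unknown here, and sequencing depth is unknown.

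From these values log2((12 hpi FPKM + 0.1)/(uninjured FPKM + 0.1)) was computed with Python 3.11.15 and pandas 2.3.3 for transcripts with at least 0.1 FPKM in both groups; on/off transcripts were described by FPKM. The log2 fold change as deposited matched that of the FPKM ratio within 0.001 for 408 of 408 kept transcripts. A standard error was derived from the authors' deposited values as log2 fold change over test statistic. With 1 value per group no test was run; the calculation was tested on simulated data. Coordinates are as listed in the deposited tables. Names came from the tables and a name table, in which 543 of 605 gene identifiers matched.

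The transcripts, 44 gene lists (3121 genes) and 16 symbol families were chosen with earlier results of these data known. The naming rule took, among kept transcripts with at least 5 FPKM in the group where they were higher and a proper symbol, the 15 highest and 15 lowest changes. It added the 10 highest levels per direction, up to 6 members per list or family of largest change, the 10 highest on/off transcripts per direction, and genes listed in both directions. Alternatives were other pseudocounts (1 and 0.01), no filter or 1 FPKM in both groups, the authors' p of at most 0.01, and 1 transcript per gene. A planned count of promoter motifs was not done, since no promoter sequences were used here. A few listed genes are not reported here.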

Additional observations from a re-analysis of the deposited data

How the results depend on the processing

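The count of kept transcripts at least 4-fold higher, 193, was 339 with no filter on low values and 70 with the authors' p of at most 0.01; the count at least 4-fold lower, 74, was 47 with a pseudocount of 1, 139 with no filter and 27 with the authors' p of at most 0.01. The median log2 change of the higher transcripts, 2.52, was 3.28 with no filter and 3.22 with the authors' p of at most 0.01. The filter and the p limit change which transcripts are counted, whereas the pseudocount of 1 keeps the same 408 and shrinks their log2 changes. The other settings kept these counts within 1.5 times, and the median of the lower transcripts stayed between -2.43 and -1.76. List medians turned round in 4 cases: growth factors from 1 FPKM in both groups (-1.77, main value 3.55), and, with the authors' p of at most 0.01, Müller glia (5.84, main value -1.67), solute carriers (2.69, main value -0.05) and serine and threonine kinases and phosphatases (-0.0467, main value 2.08); each rests on few members. Without a change of sign, list medians moved by more than 1.5-fold in 8 cases with a pseudocount of 1, 7 with 1 FPKM in both groups, 5 with no filter, 1 with 1 transcript per gene and 12 with the authors' p of at most 0.01. Among them, extracellular matrix and adhesion (main value 2.42) was 1.83 with a pseudocount of 1 and 0.36 with 1 FPKM in both groups. A pseudocount of 1 moved the log2 change of 40 of 162 named transcripts by more than 1.5-fold, and one of 0.01 moved none. With 1 pooled value per group, no replicate could be left out. No paired analysis was possible because each group had 1 value and no result comes from a test. Low FPKM values and on/off transcripts rest on few reads, and their error cannot be given without depth.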

Other observations

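Transcripts without an established name or without a protein product made up a visible share of the list, and those named here were chosen after their values were seen. Of the 408 kept transcripts, 9 higher and 9 lower ones were not typed as protein coding. The long noncoding RNA *si:dkey-13m3.1* had 71.2 FPKM at 12 hpi and 7.85 FPKM in uninjured retina. The processed transcript *si:ch211-242h13.4* had 29.1 FPKM at 12 hpi and 0.815 FPKM in uninjured retina. In the other direction, *si:dkey-30k22.5*, also a processed transcript, had 2.16 FPKM at 12 hpi and 37.8 FPKM in uninjured retina, and was the only lower transcript past 16-fold. It stayed low in the later groups, with 3.296 FPKM at 4 dpi and 1.86 FPKM at 4 dpi with valproic acid. The RNA of RNase P had 157 FPKM at 12 hpi and 583 FPKM in uninjured retina. Among microRNA precursor genes, *dre-mir-21-1* had 10.8 FPKM at 12 hpi and 0 FPKM in uninjured retina, while *dre-mir-125b-1* had 0 FPKM at 12 hpi and 9.19 FPKM in uninjured retina. Both are short, so these values can rest on few fragments.

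Some hormone genes were also listed. *pyya*, peptide YY, had 17.8 FPKM at 12 hpi and 1.196 FPKM in uninjured retina. *dio3b*, which inactivates thyroid hormone, was listed as a processed transcript with 42.8 FPKM at 12 hpi and 12.4 FPKM in uninjured retina.

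Listed genes were in some cases close neighbours. Within 5000 bases of each other lay 16 pairs of listed loci, 4 of them overlapping. Of the overlapping pairs 1 was the 2 transcripts of *impg2b*, a single gene. In the same direction were 12 pairs, beside 63.7% of all listed transcripts that were higher and 36.3% that were lower. Apart from the ferritin-like and the *faim2b* pairs, *lrrc15* and *cpn2* (listed as *BX950188.1*), 769 bases apart on chromosome 6, were both higher. *lrrc15* had 5.96 FPKM at 12 hpi and 0.530 FPKM in uninjured retina, and *cpn2* had 5.61 FPKM at 12 hpi and 0.541 FPKM in uninjured retina. On the same chromosome *rereb* and *perm1b* (listed as *si:ch211-157b11.14*), 314 bases apart, were both lower. Whether reads were shared between such neighbours was not tested.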
